A study of Mus musculus with 45 samples.

Results

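Neural stem cells (NSCs) and intermediate progenitor cells (IPCs) sorted from the dentate gyrus (DG) of the same 3 untreated mice were compared with each other across all genes. The comparison holds 18 libraries, 9 of NSCs and 9 of IPCs, taken by their column headings from the normalized tables of the untreated mice. The labels of the series describe 45 sequencing runs, of which 24 are runs of NSCs or IPCs (11 and 13). The mice were Nestin-GFP animals on a C57Bl6J background, aged 6 to 9 weeks, perfused and dissected with neither an injury nor a sham procedure. Live cells negative for the endothelial protein CD31, the leukocyte protein CD45 and the oligodendroglial antigens O1 and O4 were gated on GFP and on GLAST, the glutamate transporter encoded by Slc1a3, and the design text adds Cd11b to the excluded antigens. GFP+ GLAST+ cells were taken as NSCs and GFP+ GLAST- cells as IPCs. Each library was made from part of the lysate of 300 sorted cells by full-length SMART-Seq HT amplification, with 3 technical replicates per mouse and population. GFP is driven by regulatory elements of Nestin in this line, and the study's own staining also found it in endothelia and oligodendroglia of the DG, which limits GFP as a mark of progenitors. Whole DG libraries, set beside the gates for some values, came from 3 other untreated mice of that age and strain background, mice 4 to 6, which the labels call Nestin-GFP and the study wild type, and they were prepared from unsorted tissue with another kit (NEBNext Ultra II Directional). In such bulk libraries fewer cells of a type and less RNA per cell cannot be told apart.

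Adult NSCs of the DG are radial glia-like cells that share many transcripts with astrocytes and are mostly quiescent. They give rise to IPCs, which divide, switch on proneural transcription factors and become neuroblasts that mature into granule neurons. Both lie beside capillaries, whose wall is built of endothelial cells joined by tight junctions and of pericytes that wrap them.

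The 9 NSC libraries held 9933254 to 18369483 reads in genes (median 11999775) and the 9 IPC libraries 9980166 to 15443542 (median 13512115). The values are normalized counts, that is, reads per gene divided by a size factor of the library. CLEAR, the study's filter, keeps in each library the transcripts whose coverage along the gene passes a coverage criterion, and 4023 genes with a CLEAR value in all 18 libraries and a value above 0 in at least 1 of them were tested. A single library stood apart: technical replicate 2 of IPC mouse 2 had 6110 CLEAR genes where the other IPC libraries had 10190 to 11178 and the NSC libraries 9865 to 11520. Where its removal changed the call of a gene named here, both values are given. The technical replicates were averaged within each mouse, and limma was fitted to log2(value + 1) with the mouse as a block, so n = 3 mice per population. A fold change is NSC over IPC on that scale, and a gene is called a differentially expressed gene (DEG) at a Benjamini-Hochberg adjusted p under 0.05 over all 4023 genes.

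The gate was checked first against the genes behind it. Slc1a3, which encodes GLAST (chr15:8634124-8710764, GRCm38), had 5655, 8054 and 11395 normalized counts in the NSCs of mice 1, 2 and 3 and 6376, 9324 and 9048 in their IPCs. The populations overlapped, and the log2 fold change was -0.02 with a 95% interval of -0.34 to 0.31 (adjusted p = 0.962 by limma), so a difference in the transcript of the sort antigen was not detectable. Nes, the intermediate filament gene whose elements drive GFP, lay at 252, 270.4 and 311 in NSCs and 156, 66.8 and 67.3 in IPCs, higher in NSCs of every mouse, but it was not CLEAR in every library and did not pass in the unfiltered table (log2 fold change 1.63, adjusted p = 0.291 by limma).

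The radial glia-like list, which holds the markers fixed for NSCs, overlapped between the populations too. Of its 10 tested genes only Vim, another intermediate filament, was a DEG, with 2805, 2920.2 and 3093 in NSCs and 1175, 1675 and 1155 in IPCs (log2 fold change 1.16 ± 0.18 SE, adjusted p = 0.0191), and the median of the list was 0.04. The summed level of the list was 58926 to 234697 normalized counts over the NSC libraries and 96297 to 183995 over the IPC libraries, so the ranges overlapped. Apoe (on average 61370 in NSCs and 53444 in IPCs) and Aldoc (23476 and 22392), picked after their values were seen, held much of that sum. It therefore says little about the less abundant markers. The transcripts of antigens used for exclusion were present. Pecam1, which encodes CD31 and lies at chr11:106654217-106750628, was a DEG with 2809, 3457 and 3359.6 in NSCs against 596, 1827 and 514 in IPCs (log2 fold change 1.95 ± 0.33, adjusted p = 0.0239). Ptprc, which encodes CD45, lay at 51.2, 34.4 and 73.2 in NSCs and 40.9, 0.242 and 1.02 in IPCs with overlap, and did not pass in the unfiltered table (adjusted p = 0.372). NSC and IPC are therefore used here as names of the 2 gates.

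Of the 4023 genes, 163 were DEGs between the gates (4.05%). They divided into 94 higher in NSCs (2.34% of the tested genes) and 69 higher in IPCs (1.72%). The median log2 fold change was 1.40 among the former and -0.98 among the latter, beside -0.05 over all tested genes, and 73 and 33 of them passed a log2 difference of 1. The mouse means of the populations did not overlap for 157 of the 163 DEGs (96.3%), beside 983 of all tested genes (24.4%). Every NSC library stood on the same side of every IPC library for 26 DEGs (16.0%, beside 0.696% of all tested genes), and without the library that stood apart for 81 (49.7%, beside 3.33%). The shares of 2.34% toward NSCs and 1.72% toward IPCs are set beside the counts of DEGs in each gene list below. The lists were chosen with earlier results of these data known, so the shares are a description and not a test. Calls gathered among abundant genes: from the lowest to the highest quartile of mean level 0.497%, 1.89%, 3.88% and 9.94% of the genes were DEGs. The highest quartile held 57 DEGs toward NSCs and 43 toward IPCs among 1006 genes, and the lists were not matched for level. The count of 163 itself rested on few mice and on the fit. It fell to 0 without mouse 1 or without mouse 3 (535 and 490 genes at an unadjusted p under 0.05 by limma, beside 849 with all mice), was 84 without mouse 2, was 91 without the replicate block, and was 381 (236 toward NSCs and 145 toward IPCs) without technical replicate 2 of IPC mouse 2. It was also 0 by limma without a variance trend (751 at an unadjusted p under 0.05) and 0 with genes at 0 in all libraries kept in the fit (769), whereas edgeR called 260 and DESeq2 542 on the recovered reads.

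**Figure D1:**
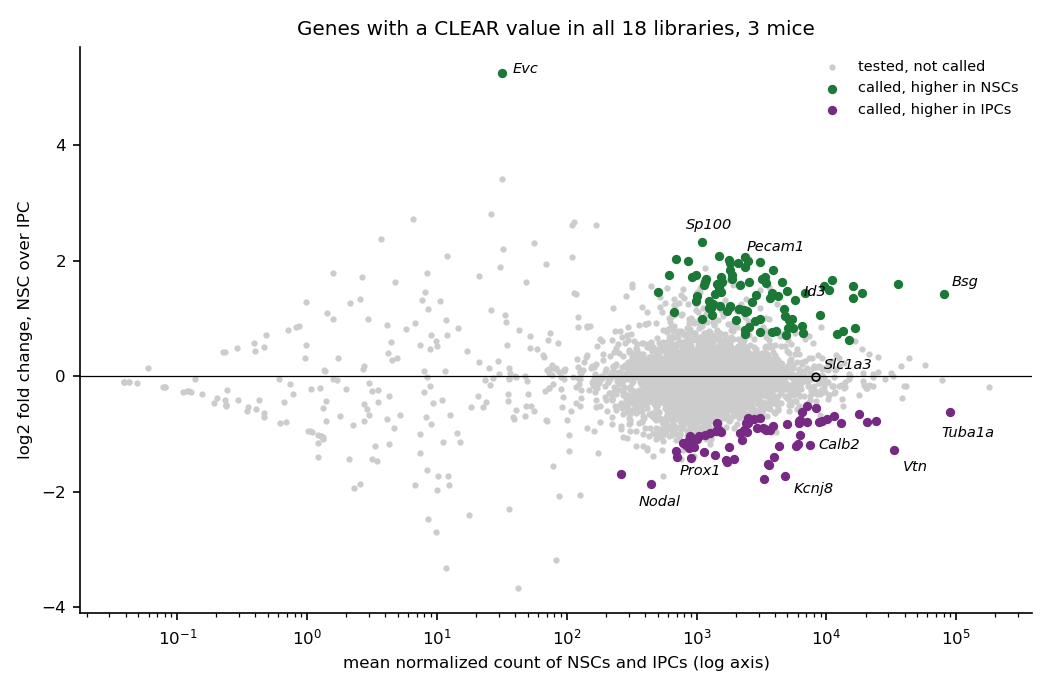
Log2 fold change of NSC over IPC (vertical axis) against the mean normalized count (horizontal axis, log scale) of the 4023 tested genes. Green points are the 94 DEGs higher in NSCs, purple points the 69 higher in IPCs, and the open circle is Slc1a3, which lies at -0.02.

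Among DEGs whose mouse means did not overlap and whose higher population averaged at least 100, the largest difference toward NSCs was that of Sp100. Sp100, a component of nuclear bodies encoded at chr1:85649988-85709998, had 1551, 1831 and 2119 normalized counts in NSCs and 268, 437 and 406 in IPCs (log2 fold change 2.32 ± 0.22 SE, adjusted p = 0.0101 by limma). Slc16a4, a member of the monocarboxylate transporter family, lay at 2167, 1904 and 3117 against 498, 709.9 and 481 (log2 fold change 2.08 ± 0.27). Cyyr1 (chr16:85421533-85553397) lay at 3620.2, 3532 and 4241 against 871, 932 and 912 (log2 fold change 2.06 ± 0.16, adjusted p = 0.00659). By the rule of this choice the lowest NSC mouse stood above the highest IPC mouse for each of the 3. The NSC mice of Slc16a4 were spread most widely of the 3, from 1904 to 3117.

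The protease gene Ctsh had a gap of similar size, with 3733, 3821 and 4354 normalized counts in NSCs and 991, 975 and 1021 in IPCs (log2 fold change 1.99 ± 0.15, adjusted p = 0.00659). Every NSC library stood above every IPC library for Ctsh, Sp100 and Cyyr1. The iron exporter Slc40a1 (log2 fold change 1.97) and the endothelial lectin Cd93 (2.01) also belonged to the 15 largest. So did Mal, a lipid raft protein of myelin-forming cells and the DEG of the oligodendroglial list, with 1207, 1122 and 957 in NSCs and 164, 319 and 369 in IPCs (log2 fold change 2.02), Apod, the lipid carrier apolipoprotein D of the fibroblast list (1.83), the complement inhibitor Cd59a (1.99), Fxyd5 (1.88), a regulator of the sodium pump, 9430020K01Rik (1.84) and the coatomer subunit Copz2 (1.75). The estimates of these genes lay close together, and their intervals overlapped. Evc, a ciliary protein picked after its values were seen, had a larger fitted value but too low a level for this list, with 145, 15.3 and 30.6 in NSCs and 0, 0.366 and 0 in IPCs, and no fold is given because 2 IPC mice were at 0.

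The largest difference toward IPCs was that of Nodal. Nodal, a ligand of the TGF-beta family, lay at 124, 149.7 and 345 in NSCs and 582, 632 and 845 in IPCs (log2 fold change -1.86 ± 0.31, adjusted p = 0.0239 by limma). Kcnj8, an ATP-sensitive potassium channel subunit at chr6:142564837-142571614, lay at 2805, 2116 and 1802 in NSCs and 6346, 8358 and 7341 in IPCs (log2 fold change -1.73 ± 0.19, adjusted p = 0.0113). Apbb1, an adaptor that binds the amyloid precursor protein, had a log2 fold change of -1.49 (adjusted p = 0.0247). The rule of this choice required that the mouse means of these genes did not overlap. Further members of the 15 were the proline transporter Slc6a20a, with 1447, 1287 and 1688 in NSCs and 4879.6, 6761 and 3905 in IPCs (log2 fold change -1.78), Art3 (-1.52), the RNA exosome nuclease Exosc10 (-1.42), the orphan receptor Gpr85 (-1.39), the actin-filament protein Afap1 (-1.31) and the ubiquitin ligase Nedd4l (-1.25). Slc6a20a is also a gene of the fibroblast list, whose 4 tested members held 1 DEG in each direction. Of the DEGs named here 3 were no longer called without technical replicate 2 of IPC mouse 2: Fgfr1, a receptor of fibroblast growth factors (-1.09 with it, -0.76 without it, adjusted p = 0.105), the proteasome subunit Psmd3 (-1.02 and -0.64, adjusted p = 0.129), and the synaptic adhesion gene Lrrtm1 (-1.29 and -0.82, adjusted p = 0.188).

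**Figure D2:**
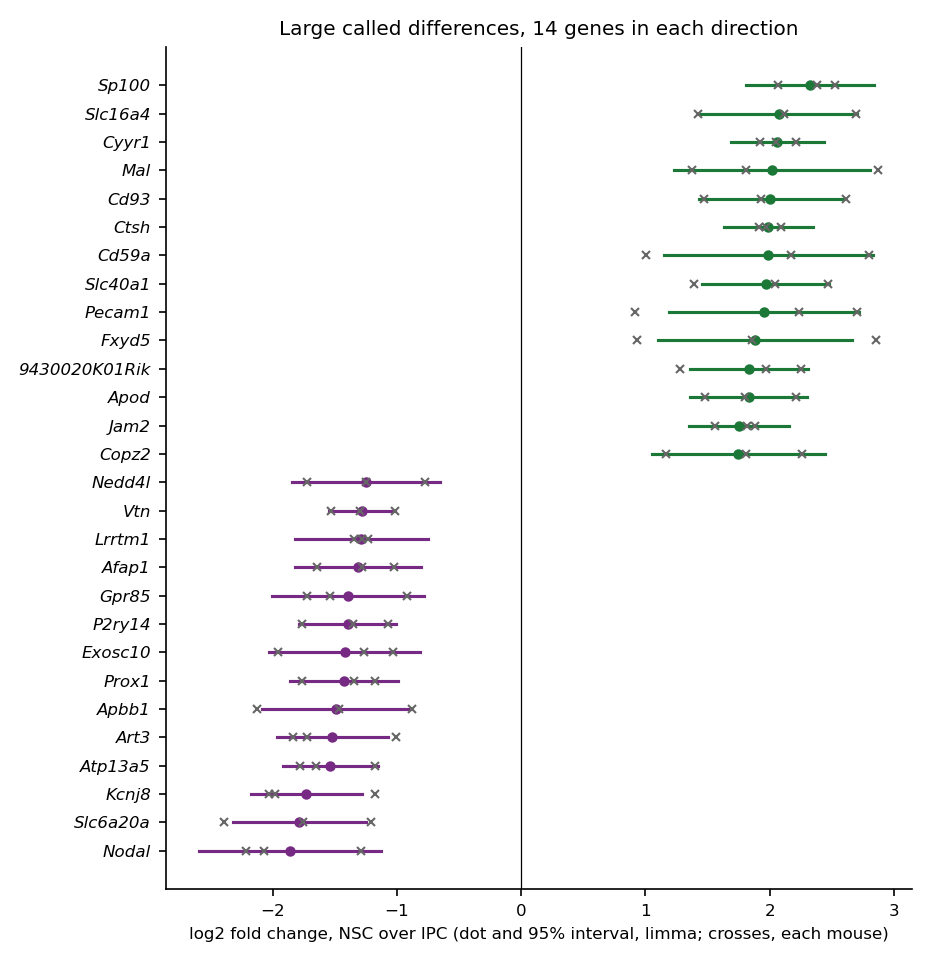
Of the 15 DEGs with the largest log2 fold change in each direction, among those whose mouse means did not overlap and whose higher population averaged 100 or more, the 14 reported here (horizontal axis, NSC over IPC), with a dot for the estimate, a bar for its 95% limma interval and a cross for each of the 3 mice. By that choice the crosses of the genes higher in NSCs lie right of 0 and those of the genes higher in IPCs left of 0. Sp100 lies at 2.32 and Nodal at -1.86.

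Endothelial genes stood higher in NSCs as a group. Of 32 listed genes 23 were tested, 19 were DEGs toward NSCs (82.6%, beside 2.34% of all tested genes), none was a DEG toward IPCs, and all 23 fold changes were above 0 with a median of 1.55. The medians by mouse were 1.87, 0.92 and 1.97 for mice 1, 2 and 3. Cldn5, the main claudin of brain endothelial tight junctions, was picked after its values were seen, with 15088, 13756 and 16967 normalized counts in NSCs and 4705, 8588 and 3995 in IPCs (log2 fold change 1.48 ± 0.24, adjusted p = 0.0232 by limma). The proteoglycan Srgn had 2524, 2864 and 3070.1 against 606, 1113 and 1006 (log2 fold change 1.68, adjusted p = 0.0126). Emcn, the endothelial sialomucin endomucin, had 3949, 3899.7 and 4552 against 1384, 1844 and 1459 (log2 fold change 1.41). In Cldn5 and Emcn IPC mouse 2 was the highest IPC mouse. Its technical replicate 2 accounted for a summed endothelial level of 207489, inside the NSC range of 146365 to 215425, whereas the other 8 IPC libraries reached 39649.5 to 62036. Without that library all 23 tested genes were DEGs, the list median was 1.98, and Pecam1 moved from 1.95 to 2.59. Without the replicate block 13 of the 23 were DEGs. Whole DG libraries had a summed endothelial level of 4775 to 6410, so both gates exceeded it. No endothelial gene of the list was at 0 in every library of a gate, and what part endothelial RNA had in the other differences was not tested.

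Transporters of the blood-brain barrier also had DEGs toward NSCs alone. Of 14 tested, 8 were DEGs toward NSCs (57.1%, beside 2.34% of all tested genes) and 0 toward IPCs, with a median of 1.30. Without technical replicate 2 of IPC mouse 2 all 14 were called, and without the replicate block 4. Bsg, the chaperone of monocarboxylate transporters and one of the most abundant transcripts of the list, lay at 105539, 109292 and 131502 in NSCs and 34804, 63136 and 36136 in IPCs (log2 fold change 1.42 ± 0.19, adjusted p = 0.0153 by limma). Abcg2, an efflux pump of capillaries (log2 fold change 1.38, adjusted p = 0.0153), and the glutamine transporter Slc38a5 (1.68, adjusted p = 0.0158) were DEGs as well. The Bsg gap in mouse 2 was the smallest of the 3 mice, and without the library that stood apart the estimate was 1.82. Junction proteins had 3 DEGs among 9 tested (33.3%, beside 2.34% of all tested genes), all toward NSCs, with a list median of 0.21. They were the adhesion molecules Jam2 at 1.75 and F11r at 1.25 and the tight junction protein Ocln at 1.46. All 21 tested genes of caveolae and actin-linked proteins lay above 0 (median 1.05). Without that library 18 were called, and without the replicate block 8. In the main fit 10 of them were DEGs toward NSCs (47.6%, beside 2.34% of all tested genes) and none toward IPCs. They included Pls3, an actin-bundling plastin (log2 fold change 1.44, adjusted p = 0.0101 by limma), the caveolin Cav2 (log2 fold change 1.63, adjusted p = 0.0153) and the myosin light chain Myl6 (log2 fold change 1.05, adjusted p = 0.0153). Both tested genes of the Ly6 family, Ly6c2 (1.71) and Cd59a (1.99), were DEGs toward NSCs, as was Ly6c1 of the endothelial list (1.56), and since Ly6c1 and Ly6c2 are close paralogs their reads may be shared.

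**Figure D3:**
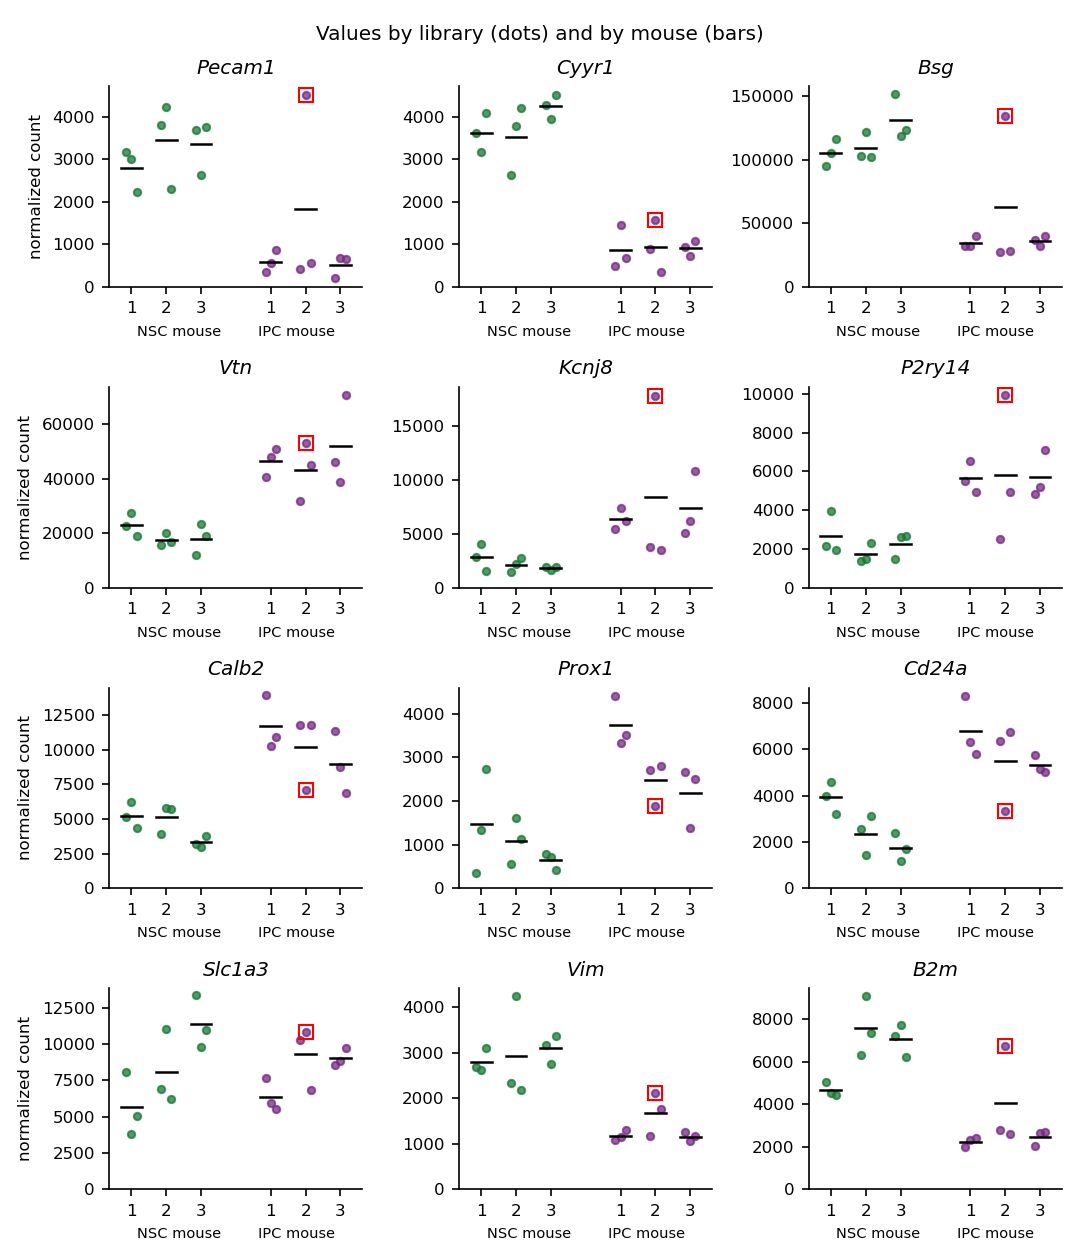
Normalized counts of 12 genes in each of the 18 libraries (vertical axes, by population and mouse), with dots for libraries, bars for mouse means and a red square for technical replicate 2 of IPC mouse 2. For Pecam1 the red square, at 4514, lies above every NSC library while the other IPC libraries lie below all of them, and for Slc1a3 the populations overlap.

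Mural cells, which include pericytes and vascular smooth muscle, went both ways. Of 14 tested genes of that list 8 were DEGs toward IPCs (57.1%, beside 1.72% of all tested genes). Another 2 were DEGs toward NSCs (14.3%, beside 2.34%), and the medians by mouse were -0.80, -1.37 and -1.06. Vtn, the matrix glycoprotein vitronectin at chr11:78499091-78502324, had 22955, 17584 and 18025 normalized counts in NSCs and 46497, 43149.6 and 51929 in IPCs (log2 fold change -1.28 ± 0.11, adjusted p = 0.0101 by limma). Atp13a5, a P-type ATPase, lay at 2631, 1549.8 and 1534 against 5941, 4862 and 5278 (log2 fold change -1.54, adjusted p = 0.0113), with no overlap. P2ry14, a receptor for UDP-sugars, lay at 2687, 1708 and 2235 against 5651, 5805 and 5721 (log2 fold change -1.40, adjusted p = 0.0126). Rgs5, a regulator of G-protein signalling used as a pericyte marker and picked after its values were seen, lay at 9972, 8614 and 9759 against 17005, 16272 and 16354 (log2 fold change -0.81, adjusted p = 0.0143). In all 4 genes the highest NSC mouse stood below the lowest IPC mouse. Without technical replicate 2 of IPC mouse 2, 10 of the 14 were DEGs toward IPCs and Kcnj8 moved from -1.73 to -1.33.

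The DEGs of the same list toward NSCs, also picked so, were contractile genes, the tropomyosin Tpm2 (log2 fold change 1.71, adjusted p = 0.0333 by limma) and the myosin light chain Myl9 (0.73, adjusted p = 0.0352). Of the 11 genes of the list outside the CLEAR set 6 had a fold change above 0 and 5 below it (median 0.07), and 0 passed in the unfiltered table, where 6 had an unadjusted p under 0.05 by limma. Those of smooth muscle given here were picked from them after their values were seen. Smooth muscle actin Acta2 lay at 18664, 9584 and 14378 in NSCs and 952, 3151 and 2585 in IPCs (log2 fold change 2.79, adjusted p = 0.194). The myosin heavy chain Myh11 lay at 638, 626 and 993 and 15.8, 58.8 and 39.5 (log2 fold change 4.42, adjusted p = 0.162), and Tagln, an actin-binding protein, had a log2 fold change of 2.94 (adjusted p = 0.162), or 3.26 (adjusted p = 0.0354) without technical replicate 2 of IPC mouse 2. The summed level of the whole list was 62907 to 118550 over NSC libraries and 80649.9 to 163704 over IPC libraries, far above the 2102 to 3102 of whole DG.

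Markers of the other cell types that the gates could hold were listed too. Microglial genes lay higher in NSCs. The 19 members outside the CLEAR set all had a higher level in NSCs, with a median log2 fold change of 3.59 and no adjusted call. Of them 18 had an unadjusted p under 0.05 by limma, beside 819 toward NSCs among all 12661 genes outside the CLEAR set. Ctss, a lysosomal protease abundant in microglia and picked after its values were seen, lay at 1261, 2585 and 1157 in NSCs and 94.4, 136 and 64.9 in IPCs (log2 fold change 4.03, adjusted p = 0.135 by limma, and 3.85 with adjusted p = 0.0288 without technical replicate 2 of IPC mouse 2). The complement gene C1qb (log2 fold change 3.53, adjusted p = 0.152) and the receptor Csf1r (3.59, adjusted p = 0.162) were picked likewise. The summed microglial level of 20 genes was 7190.2 to 27439 over NSC libraries, 151.7 to 5812 over IPC libraries with the highest in technical replicate 2 of IPC mouse 2 (2813 without it), and 14552 to 15798 in whole DG. Oligodendroglial genes had summed levels of 7668 to 17663 in NSCs and 4672 to 11871 in IPCs, below the 63592 to 75784 of whole DG, with Cldn11 and Opalin at 0 in NSCs, and 1 of 6 tested genes was a DEG toward NSCs. Mature neuron genes had 3279.8 to 7399 in NSCs and 5782 to 12641 in IPCs, beside 170816 to 205925 in whole DG. What part these cells had in the differences was not tested.

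**Figure D4:**
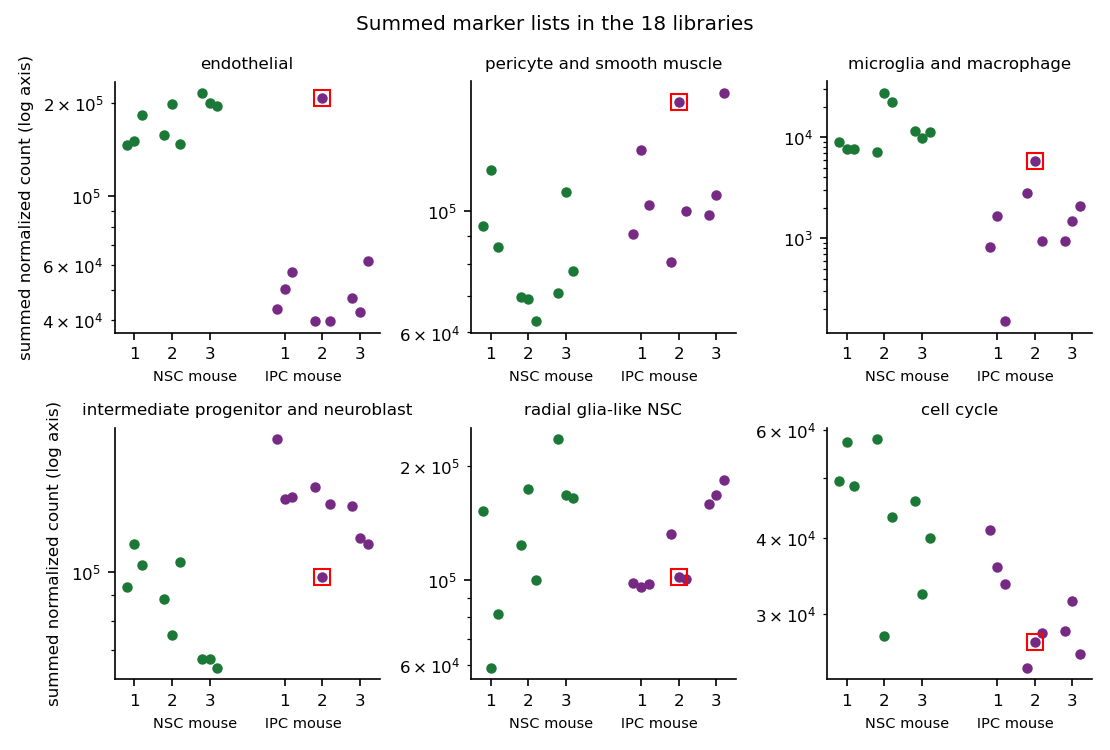
Summed normalized counts of 6 gene lists (vertical axes, log scale) in each library of NSCs and IPCs, with dots for libraries and a red square for technical replicate 2 of IPC mouse 2. In the endothelial panel the red square reaches 207489 while the other IPC libraries lie at or below 62036.

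Neuronal lineage genes stood higher in IPCs. Of 14 tested genes of IPCs and neuroblasts 7 were DEGs toward IPCs (50%, beside 1.72% of all tested genes) and none toward NSCs. None of the 14 had a fold change above 0 (median -0.78, and -0.67, -0.84 and -1.01 by mouse). Calb2, the calcium-binding protein calretinin at chr8:110137502-110168210, had 5242, 5141 and 3334 normalized counts in NSCs and 11698, 10205 and 8966 in IPCs (log2 fold change -1.19 ± 0.13 SE, adjusted p = 0.0113 by limma). Prox1, a homeobox transcription factor of granule neurons at chr1:190118035-190170714, lay at 1475, 1093 and 640.4 against 3748, 2469.8 and 2175 (log2 fold change -1.43 ± 0.18, adjusted p = 0.0153). Cd24a, a surface glycoprotein of neuroblasts, lay at 3926, 2365 and 1762 against 6815, 5489 and 5307 (log2 fold change -1.20 ± 0.17, adjusted p = 0.0158). NSC levels were lowest in mouse 3 for the 3 genes, and no mouse overlapped between the populations. Without technical replicate 2 of IPC mouse 2, which had the lowest summed level of the list among the IPC libraries (97617, with 114004 the next lowest), 10 of the 14 were DEGs, and without the replicate block 2 were. The microtubule regulator Stmn2 (log2 fold change -1.11, adjusted p = 0.0158 by limma) and the neuronal tubulin Tubb3 (log2 fold change -1.18, adjusted p = 0.0275) belonged to the 7 as well.

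Among transcription factors of the lineage some were DEGs and others did not pass, and their differences from each other were not tested. The proneural factor Neurod1 (log2 fold change -0.77, adjusted p = 0.0196) and Sox11 (log2 fold change -0.78, adjusted p = 0.0196), which acts with it in immature neurons, were DEGs toward IPCs, while Eomes (log2 fold change 0.10, adjusted p = 0.912), the T-box factor that defines IPCs, and the microtubule-associated Dcx (log2 fold change -0.51, adjusted p = 0.222) did not pass, Eomes being outside the CLEAR set. Neurod1, Sox11, Eomes and Dcx were picked after their values were seen. Neurog2, which acts upstream of Eomes and Neurod1, was outside the CLEAR set and had a log2 fold change of 0.90 (adjusted p = 0.74).

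Genes of the growing neurite had DEGs toward IPCs alone. Of 17 tested genes of neurite and axon growth 5 were DEGs toward IPCs (29.4%, beside 1.72% of all tested genes) and 0 toward NSCs. The median was -0.70, and 8 were called without technical replicate 2 of IPC mouse 2 and 3 without the replicate block. Map1b, a microtubule-associated protein of growing axons, had 7633, 5873 and 5828 in NSCs and 11499, 11435 and 10437 in IPCs (log2 fold change -0.80, adjusted p = 0.0161 by limma). The tubulin Tuba1a (-0.61), the reticulon Rtn1 (-0.75) and the adhesion protein Flrt3 (-1.19) were DEGs as well. Of 11 tested synaptic vesicle genes 3 were DEGs toward IPCs (27.3%, beside 1.72% of all tested genes), with a list median of -0.66. They were the adaptor Apba2 (-1.19), the GTPase Rab3a (-0.94) and Syngr3 (-1.10), while Sypl was a DEG toward NSCs (0.97). The only tested mature neuron gene, the glutamate receptor subunit Gria2, was a DEG toward IPCs at -0.83. Axon guidance had no DEG among 6 tested (median -0.45), though without technical replicate 2 of IPC mouse 2 the adhesion molecule Chl1 was one at -0.94 (adjusted p = 0.0374), and RNA-binding proteins had 1 of 10 toward IPCs, the splicing repressor Ptbp2 at -0.81 (median -0.38).

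**Figure D5:**
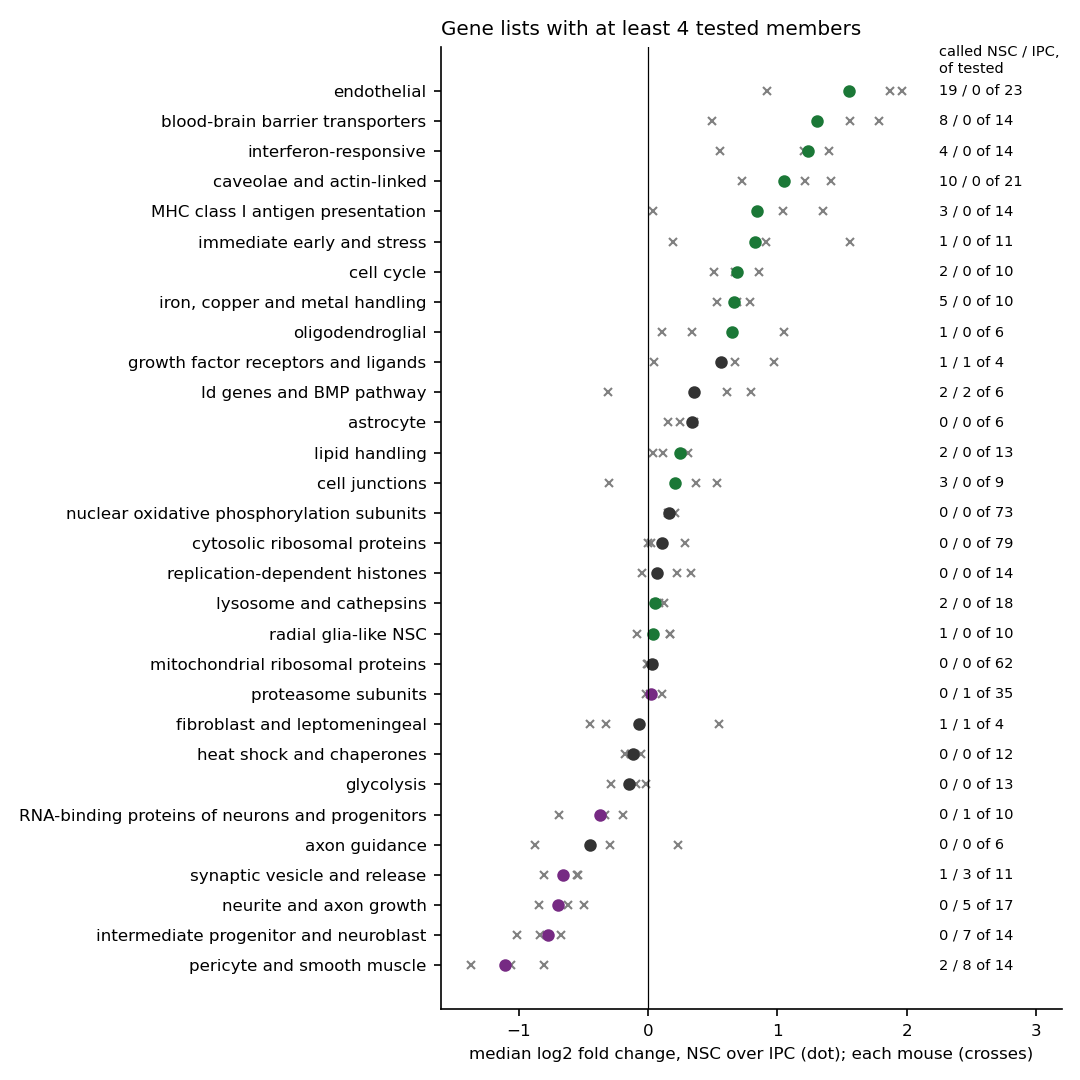
Median log2 fold change (horizontal axis, NSC over IPC) of the 30 gene lists with at least 4 tested members, with dots for the median over the members' estimates and crosses for the median in each mouse. Green lists held more DEGs toward NSCs, purple lists more toward IPCs and dark lists equal numbers, the endothelial list reaching 1.55 and the neuroblast list -0.78.

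Inhibitors of differentiation (Id proteins) and BMP genes split within their list, with 2 DEGs in each direction among 6 tested. In each direction that is 33.3%, beside 2.34% toward NSCs and 1.72% toward IPCs over all tested genes. Id3 (log2 fold change 1.31, adjusted p = 0.0101 by limma) and Id1 (log2 fold change 1.25, adjusted p = 0.0333), which bind the partners of proneural factors and keep them from DNA, were higher in NSCs. Id2, of the same family, was higher in IPCs, with 5579, 5128 and 4801 in NSCs and 9295, 8793 and 8892 in IPCs (log2 fold change -0.80, adjusted p = 0.0158). Notch genes had 0 DEGs among 3 tested (median 0.30) and glycolysis genes 0 among 13 (median -0.15). Immediate early genes respond quickly to stimulation and to handling of cells. Of 11 tested, 1 was a DEG toward NSCs, the NF-kappaB inhibitor Nfkbia (log2 fold change 1.04, adjusted p = 0.026 by limma). All 11 lay above 0 (median 0.82, and 1.56, 0.19 and 0.91 in mice 1, 2 and 3). The 25 listed genes summed to 22400 to 33251 over NSC libraries. Technical replicate 2 of IPC mouse 2 reached 56641, and the IPC libraries without it 8989 to 15678. The 12 tested heat shock genes had 0 DEGs (median -0.12). Iron, copper and other metal-handling genes had 5 DEGs toward NSCs among 10 tested (50%, beside 2.34% of all tested genes, median 0.67). Slc40a1 lay at 4646, 3887 and 6204 against 1126, 1481 and 1117. The copper importer Slc31a1 lay at 3444, 3189 and 3060.2 against 1635, 1358 and 1526, without overlap. The copper chaperone Atox1 (1.16) and the transferrin receptor Tfrc (1.30) were DEGs too.

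Of 10 tested cell cycle genes 2 were DEGs (20%, beside 2.34% of all tested genes), both toward NSCs, the cyclin Ccnd3 (log2 fold change 1.05, adjusted p = 0.0254 by limma) and the chromatin protein Hmgb2 (log2 fold change 0.86, adjusted p = 0.0498), with a list median of 0.69, 4 calls without technical replicate 2 of IPC mouse 2 and 1 without the replicate block. A further 23 cell cycle genes lay outside the CLEAR set, and 22 of them were higher in NSCs (median 1.84). Of the 23, 15 had an unadjusted p under 0.05 by limma and 0 an adjusted p under 0.05. Among all 12661 genes outside the CLEAR set, 819 toward NSCs and 576 toward IPCs had such an unadjusted p. Top2a, the topoisomerase of dividing cells picked after its values were seen, lay at 1017, 1037 and 826 in NSCs and 280.5, 244 and 98 in IPCs (log2 fold change 2.33, adjusted p = 0.162). The cyclin Ccnb1 (log2 fold change 2.75, adjusted p = 0.162) and the kinase Cdk1 (1.90, adjusted p = 0.194) were likewise picked and also did not pass. The summed level of the list was 27631 to 57942 over NSC libraries and 24493 to 41123 over IPC libraries, so single libraries overlapped.

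Antigen presentation and interferon-responsive genes had DEGs toward NSCs alone. Of 14 tested MHC class I genes 3 were DEGs toward NSCs (21.4%, beside 2.34% of all tested genes). All 14 lay above 0 (median 0.84). Of 14 tested interferon-responsive genes 4 were DEGs toward NSCs (28.6%, beside the same 2.34%), and all 14 lay above 0 (median 1.24). Without technical replicate 2 of IPC mouse 2 the counts were 8 and 11, and without the replicate block 1 and 3. The summed endothelial level, with a median of 182442 over NSC libraries and 46941 over IPC libraries, and the summed microglial level, with 9861 and 1497, were higher in NSCs too, and their part in these differences was not tested. B2m, the invariant light chain of MHC class I at chr2:122147686-122153083, had 4669.9, 7589.7 and 7052 in NSCs and 2219, 4034 and 2453 in IPCs (log2 fold change 1.17 ± 0.15, adjusted p = 0.0153 by limma). The MHC class I genes H2-T23 (log2 fold change 1.18, adjusted p = 0.0306) and H2-K1 (log2 fold change 1.19, adjusted p = 0.0367) have close paralogs, so reads may have been shared. Bst2, the antiviral tetherin, lay at 641, 767 and 831 against 249.9, 263 and 295 (log2 fold change 1.46, adjusted p = 0.0263), Ly6e was a DEG at 1.35 (adjusted p = 0.0153), and Ifitm3, which blocks viral entry, was a DEG at 0.98 (adjusted p = 0.0467).

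The promoters of 4 of these DEGs are shown because they share a motif of interferon-regulated promoters. Sp100, Ly6e and H2-K1, the other DEGs of these lists, were not among the genes with a match. Not every member of the lists had a promoter sequence to search. Each sequence is the RefSeq stretch on GRCm38.p6 from 250 bases before the start of the gene to 50 after it, written 5′ to 3′ on the strand of the gene, with capitals marking matches to GAAANNGAAA or, on the other strand, TTTCNNTTTC. The stretch of Bst2 is chr8:71537423-71537722 on the minus strand, that of Ifitm3 chr7:141010695-141010994 on the minus strand, that of B2m chr2:122147437-122147736 on the plus strand and that of H2-T23 chr17:36032652-36032951 on the minus strand.
Bst2: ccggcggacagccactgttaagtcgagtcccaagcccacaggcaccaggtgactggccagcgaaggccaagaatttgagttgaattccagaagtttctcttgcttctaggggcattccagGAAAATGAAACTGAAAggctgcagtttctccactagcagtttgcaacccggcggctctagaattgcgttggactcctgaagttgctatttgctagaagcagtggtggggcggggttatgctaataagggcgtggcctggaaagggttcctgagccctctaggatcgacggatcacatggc
Ifitm3: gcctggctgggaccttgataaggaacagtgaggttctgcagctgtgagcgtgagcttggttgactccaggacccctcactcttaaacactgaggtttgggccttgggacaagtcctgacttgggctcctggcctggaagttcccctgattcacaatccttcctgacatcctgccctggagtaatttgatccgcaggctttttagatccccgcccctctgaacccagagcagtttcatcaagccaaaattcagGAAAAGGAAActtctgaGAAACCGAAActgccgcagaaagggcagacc
B2m: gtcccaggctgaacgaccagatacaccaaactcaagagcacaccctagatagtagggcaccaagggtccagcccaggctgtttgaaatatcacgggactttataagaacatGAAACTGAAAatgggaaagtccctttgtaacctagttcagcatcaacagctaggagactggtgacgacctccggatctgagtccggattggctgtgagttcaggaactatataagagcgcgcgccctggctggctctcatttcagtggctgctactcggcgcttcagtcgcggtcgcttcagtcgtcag
H2-T23: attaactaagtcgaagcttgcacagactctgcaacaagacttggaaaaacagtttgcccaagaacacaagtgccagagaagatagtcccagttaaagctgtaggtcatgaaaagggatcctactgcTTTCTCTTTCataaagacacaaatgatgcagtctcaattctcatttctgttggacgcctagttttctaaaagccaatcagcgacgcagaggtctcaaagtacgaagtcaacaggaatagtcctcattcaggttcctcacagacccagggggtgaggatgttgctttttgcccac
In B2m the match begins 139 bases before the start and in H2-T23 124 bases before it. Bst2 and Ifitm3 each held 2 matches, which overlap in Bst2. The first match of Bst2 begins 130 bases before the start. That of Ifitm3 begins 2 bases after the start, so both Ifitm3 matches lie after it. The motif was present in the promoters of 11 of 24 interferon-responsive genes (45.8%), of 5 of 18 MHC class I genes (27.8%) and of 1 of 21 endothelial genes (4.76%), beside 1079 of all 27025 genes (3.99%). A match describes letters in this window and no binding was measured. The E-box CAGATG, searched on both strands, was in 3 of 15 neuroblast genes with a promoter (20%), beside 19.2% of all genes.

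Housekeeping lists had medians near 0. None of 79 cytosolic ribosomal protein genes (median 0.10), 62 mitochondrial ribosomal protein genes (median 0.03), 73 genes of oxidative phosphorylation (median 0.16) or 14 histone genes (median 0.07) was a DEG, and of 35 proteasome genes 1 was a DEG, Psmd3, toward IPCs (median 0.02). Lysosomal genes had 2 of 18 toward NSCs (median 0.05), Ctsh and the carboxypeptidase Ctsa (0.88). Lipid genes had 2 of 13 toward NSCs (median 0.25), the fatty acyl reductase Far2 (1.42) and the lipid transfer protein Pltp (1.44). The 26 listed lipid genes summed to 47915 to 67977 over NSC libraries. Technical replicate 2 of IPC mouse 2 reached 71272.5, and the IPC libraries without it 28690 to 38455. Astrocyte genes had 0 of 6 (median 0.34), with summed levels of 30678 to 57154 in NSCs and 22209.8 to 47694 in IPCs that overlapped. The glutamine synthetase Glul (log2 fold change 0.53, adjusted p = 0.105 by limma) and Sparcl1 (log2 fold change 0.38, adjusted p = 0.102) were the most abundant of them, and without technical replicate 2 of IPC mouse 2 both were DEGs toward NSCs, Glul at 0.61 (adjusted p = 0.0241) and Sparcl1 at 0.41 (adjusted p = 0.0246).

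The unfiltered table covered genes without a CLEAR value in every library. The 16552 genes that averaged 10 or more were tested by limma, and 0 were called (0%), the smallest adjusted p being 0.135, while 2152 had an unadjusted p under 0.05. edgeR on the recovered reads called 0, DESeq2 1299 (811 toward NSCs and 488 toward IPCs), and limma 87 (74 and 13) without technical replicate 2 of IPC mouse 2. Of 12661 genes outside the CLEAR set, 819 toward NSCs and 576 toward IPCs had an unadjusted p under 0.05. By CLEAR alone 1 gene had a value in all 9 NSC libraries and in no IPC library, and 0 genes the reverse. That gene was Aif1, the calcium-binding protein Iba1 of microglia, with 87.8, 155 and 131 in NSCs and 1.03, 1.46 and 3.4 in IPCs (log2 fold change 5.45, adjusted p = 0.187), and it was above 0 in 6 of the 9 IPC libraries.

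Sham mice 4 and 6 of another cohort, sorted 4 hours after a sham procedure with 1 library per population, gave values in mice that the calls had not used. Their tables were normalized separately, so signs and differences were read within a mouse. Of the DEGs toward NSCs present there, 62 of 92 had the same direction in mouse 4 (67.4%, beside 44.9% of all tested genes) and 86 in mouse 6 (93.5%, beside 47.9%). Of the DEGs toward IPCs 53 of 68 did so in mouse 4 (77.9%, beside 53.4%) and 54 in mouse 6 (79.4%, beside 50.1%). In the sham mice most DEGs kept their direction, with mouse 4 lower than mouse 6 for those toward NSCs. In both mice 57 of 92 toward NSCs did so (62.0%, beside 22.4% of all tested genes). Toward IPCs 44 of 68 did so (64.7%, beside 27.9%). The median log2 differences in mice 4 and 6 were 0.30 and 0.76 toward NSCs, beside 1.40 in the untreated mice. Toward IPCs they were -0.36 and -0.34, beside -0.98. Pecam1 had sham log2 fold changes of 1.34 and 1.66 in mice 4 and 6, Calb2 -0.99 and -0.82 and Prox1 -0.58 and -1.07. Sp100 had -2.31 and 1.43, Nodal -2.37 and 0.84, B2m -0.40 and 0.32 and Vtn 0.01 and -0.34. The sham values of these genes did not all keep the sign of the untreated mice.

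The level in whole DG was set beside that of the gates as a description, since those libraries differ from the sorted ones in mice and kit and in their total, 17380917 to 17600588 normalized counts beside 10250319 to 12211579 in the gates. The whole DG mean lay below both gates for 82 of the 94 DEGs toward NSCs (87.2%, beside 52.3% of all tested genes), between them for 7 and above both for 5. Of the 69 DEGs toward IPCs it lay below both for 36 (52.2%), between for 6 and above both for 27 (39.1%, beside 37.5% of all tested genes), shares near those of all tested genes.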

How the data were processed

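The authors trimmed and aligned the reads, counted reads per gene with featureCounts, strand ignored, and deposited normalized counts (signal values that are reads divided by a DESeq2 size factor per library), in an unfiltered table and in one restricted to transcripts passing CLEAR. The submitters' processing notes name HISAT2 2.0.6 and CASAVA 1.8.2, and list GRCh38, a human build, whereas the study's methods name the mouse genome GRCm38p4 for the alignment. Whole reads were recovered for 100% of the values of the unfiltered table (tolerance 0.05), and 678 rows of 310 repeated symbols, Itgam (Cd11b) included, were left out.

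Technical replicates were averaged within each mouse and log2(value + 1) was tested with limma 3.58.1 (R 4.3.3, variance trend, mouse as block, two-sided), with Benjamini-Hochberg adjustment over all genes tested. The 2 populations come from the same animals. Deviations from the population mean correlated at 0.259, 0.134 and 0.0658 within mice 1, 2 and 3, and at -0.179 to 0.0373 between different mice. Deviations from a mean of 3 mice sum to 0, which lowers the values between mice. Replicates are animals. The genes named were the 15 largest non-overlapping DEGs per direction with a mean of at least 100, up to 4 DEGs per list (or its 2 most abundant genes), and the sort and study markers. Others are marked as picked after their values were seen, and some genes that met the rule are not reported here. The comparison, gene lists and named genes were chosen with earlier results of these data known. Alternatives were no block, other pseudocounts, no trend, rescaling, edgeR 4.0.16 and DESeq2 1.42.0 on the recovered reads, other filters, the first technical replicate, and leaving out libraries or mice. A setting with CLEAR in 17 libraries was added after seeing the data. The fit was also run on simulated counts with a single dispersion for all genes and no library that stood apart. That run cannot show how the count of DEGs depends on such a library. Gene positions are from GENCODE M21 on GRCm38.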

Additional observations from a re-analysis of the deposited data

Results flagged for a closer look

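Of 30 groups of 9 libraries tested for a single library far from the rest, 7 were flagged; chance flags about 1 in 20. Of these, 6 concern technical replicate 2 of IPC mouse 2. It had 6110 CLEAR genes, 12157 genes above 0 (15363 to 16646 in the other IPC libraries) and a total of 12211600 normalized counts. Its summed endothelial level was 207489 (39649.5 to 62036.3 in the others), its fibroblast level 19877.5 (6046.06 to 10505.3) and its microglial level 5811.78 (151.72 to 2812.74). The seventh concerns technical replicate 2 of NSC mouse 3, whose summed ependymal and choroid plexus level was 1891.82 where the other NSC libraries had 678.086 to 1114.21.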

How the results depend on the processing

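The comparison by limma with the replicate block called 163 genes. Without the replicate block it called 91, of which 90 were among the 163. edgeR called 260 and DESeq2 542 on the recovered reads, both with the block, and rescaling the libraries to 1 total gave 259, each holding all 163. A log2 fold change of at least 1 left 106. Limma without the trend called 0 and keeping genes at 0 called 0, and the first technical replicate alone called 6. Without technical replicate 2 of IPC mouse 2 it called 381, and 400 with the CLEAR filter over the other 17 libraries, added after seeing the data. Leaving out each mouse gave 0 to 84. For unfiltered values the count of 0 became 1299 with DESeq2, 88 with a mean of at least 100, 2 without the block and 87 without that library, and stayed 0 without any mouse. Separated DEGs went from 26 to 81 without it. Of 98 DEGs with a per-gene check, 1 changed sign in any alternative, Lrrtm1, at 1.82 in the first technical replicates. Among genes not called, Slc1a3 moved to 0.0463 (DESeq2), 0.0355 (edgeR), 0.0476 (first technical replicate) and 0.0229 (both settings without that library), and ranged from -0.19 to 0.0797 over the mice left out. Rbpj moved to -0.0115 without that library (-0.14 to 0.38 over mice left out). With the first technical replicate Neurog2 moved to -2.44, Sox2 to 0.42 and Eomes to -0.51. Over the mice left out Neurog2 ranged from -0.42 to 1.72, Clic6 from -0.51 to 5.45, Eno1 from -0.0611 to 0.27, Hdac1 from -0.21 to 0.34, Hdac3 from -0.16 to 0.21, Aldoc from -0.0258 to 0.15 and Gfap from -0.0044 to 0.64. The cause of these changes was not tested. The 3 mice and the small input per library limit what can be called, most of all among genes of low count.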

Other observations

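Of the 163 DEGs, 62 were in no gene list, 23 higher in NSCs and 39 higher in IPCs. The genes given here were picked after their values were seen. Toward IPCs, the extracellular superoxide dismutase Sod3 lay at 3941, 3454 and 3139 normalized counts in NSCs and 6598, 9757 and 8305 in IPCs (log2 fold change -1.21, adjusted p = 0.0158 by limma), while whole DG averaged 256. The signalling regulator Rgs4 lay at 4051, 3410.4 and 5124 against 8417, 8466 and 8335 (log2 fold change -1.02), and its 3 IPC mice differed by less than its 3 NSC mice. The cannabinoid receptor Cnr1 lay at 2760, 3293 and 2253 against 5394, 5057 and 4498 (log2 fold change -0.86). None of these overlapped between the gates.

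Transcription factors were among them. Nfib, a nuclear factor of glial and neuronal differentiation, lay at 18953, 15389.7 and 10950 in NSCs and 29734, 24555 and 22948 in IPCs (log2 fold change -0.80, adjusted p = 0.0158 by limma), and Zbtb20, a zinc finger factor of hippocampal neurons, at 17637, 12182 and 11572 against 26612, 20296 and 17903 (log2 fold change -0.65). Both were lowest in mouse 3 in each gate. Toward NSCs, the carbonic anhydrase Car4 lay at 21539.9, 19255 and 23631 against 11809.9, 11462 and 12669 (log2 fold change 0.84), the monoamine oxidase Maoa at 2928, 3079.9 and 4148 against 1573, 1712 and 1342 (1.12), and Gimap6, a GTPase of the immunity-associated family, at 2257, 2277 and 3139.6 against 1027, 1185 and 1049.9 (1.22). The matrix protein Sparc lay at 15444, 17242 and 17669 against 7953, 13483 and 8580.1 (0.78), with the highest IPC level in mouse 2.

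The median SD of log2 values between technical replicates of a mouse was 0.34 to 0.39 in the NSC groups, 0.36 and 0.35 in IPC mice 1 and 3, and 0.55 in IPC mouse 2.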
